A study of Mus musculus with 12 samples.

Results

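Matrix metalloproteinases (MMPs), the ADAM and ADAMTS proteases and the tissue inhibitors of metalloproteinases (TIMPs) were examined in colon tissue of wild-type mice by RNA sequencing. Members were the rows of the deposited expression table whose gene name begins with Mmp, Adam or Timp and a digit, or with Adamts. This gave 75 of 35841 genes, made up of 22 Mmp, 25 Adam, 19 Adamts, 5 Adamtsl and 4 Timp genes. The 12 libraries form 4 groups of 3. DSS+ImP libraries came from colon that received both agents, DSS libraries from colon that received DSS without ImP, ImP libraries from colon that received ImP without DSS, and Ctrl libraries from colon for which the labels give no treatment. Dextran sulfate sodium (DSS) is given to mice to damage the lining of the colon and bring on colitis. What ImP stands for is not spelled out in the labels; the series title names Angelica dahurica polysaccharides, and the series text says that ImP was given over 7 days. All mice were wild type, and their strain, age and DSS dose are not given in the sources read. Nothing says that each library is a separate animal, so the spread behind the p-values may be technical.

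MMPs are zinc-dependent proteases that cut collagens, proteoglycans and other matrix proteins, and they also process cytokines and other proteases. Most are secreted as inactive precursors, and some, the membrane-type MMPs, are anchored at the cell surface. ADAM proteases sit in the membrane and shed the outer parts of receptors, ligands and adhesion molecules, ADAMTS proteases are secreted and cut proteoglycans or trim procollagens, and ADAMTS-like proteins resemble them but lack the protease domain. TIMPs bind and block the active proteases. In inflamed colon these genes are known mainly from fibroblasts, macrophages, neutrophils and injured epithelium.

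Each library held between 55419380 and 67406087 estimated counts. Levels are given as CPM, counts scaled to a common library size and for library composition, and per-library values follow the order DSS+ImP 2, 3 and 4, DSS 2, 3 and 5, ImP 1, 3 and 4, and Ctrl 1, 4 and 5. Levels are compared between genes only in FPKM, the length-scaled fragment values of the deposited table. Log2 changes are given ± SE, and "rose" or "fell" is used only where edgeR's quasi-likelihood test gave a Benjamini-Hochberg adjusted p under 0.05 over the 22279 genes tested. Of the 75 members, 67 passed the filter on low counts and were tested. The libraries also differed in traces of RNA from other organs. Summed liver transcripts were at 108.2 to 131 CPM in DSS 2 and Ctrl 1, 4 and 5, and at 4.128 to 8.732 CPM in the others. Summed pancreatic transcripts, with Cela1 left out after its values were seen, were at 0.3229 to 0.3574 CPM in the DSS+ImP libraries, at 14.23 to 17.3 CPM in DSS 3 and 5 and all ImP libraries, and at 0.1535 to 4.234 CPM in DSS 2 and the Ctrl libraries. With Cela1 the sums were 39.54 to 52.05 CPM in DSS+ImP, 39.32 to 64.62 CPM in DSS, 72.59 to 85.93 CPM in ImP, and 42.92 to 48.43 CPM in Ctrl libraries, and all groups but ImP overlapped. These traces thus split the DSS group and set all DSS+ImP libraries apart, so in comparisons of DSS+ImP the library set and the treatment cannot be told apart. The 10 colon epithelium markers, among them Cdx2, Muc2 and Car1, were present in all groups and summed to between 15330 and 36250 CPM per library. In bulk tissue, fewer cells of a type and less RNA per cell cannot be told apart.

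On chromosome 9, 9 members stand in a single run in the RefSeq annotation of GRCm38.p6, in the order Mmp13, Mmp12, Mmp3, Mmp1a, Mmp10, Mmp8, Mmp27, Mmp20 and Mmp7. Mmp1b, which the rule does not take, lies between Mmp12 and Mmp3. The run holds the collagenases Mmp13, Mmp8 and Mmp1a, the stromelysins Mmp3 and Mmp10, the macrophage elastase Mmp12, the enamel protease Mmp20, the matrilysin Mmp7 and Mmp27. RefSeq promoters, from 250 bases before to 50 bases after the annotated start, were at hand for 47 of the 75 members, all 9 of the run among them. They were searched on both strands for TGAGTCA, which is the consensus of the inducible factor AP-1 (Fos and Jun), and for TATAAA, with which the TATA box is usually described. Both are known from textbook work on stromelysin and collagenase promoters, and the letters of the 2 motifs do not overlap in the promoters printed here. TGAGTCA was in 5.95% of 27025 genes with a promoter, in 6 of the 9 members of the run (Mmp13, Mmp12, Mmp3, Mmp1a, Mmp10 and Mmp7) and in 2 of the 38 other members (Adam1b and Adam19). TATAAA was in 15.67% of all genes with a promoter, in 8 of the 9 members of the run and in 5 of the 38 others. A gene with several RefSeq promoters was counted if any of them held the motif. Mmp12, Mmp7 and Adam19 also have promoters without the AP-1 consensus. Matches were counted anywhere in the window, so the count of TATAAA is not a count of TATA boxes. A match describes letters and shows no binding.

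The promoters of 5 members of the run follow, all on the plus strand of GRCm38.p6. Mmp3, Mmp10, Mmp13 and Mmp7 hold the AP-1 consensus in the promoter printed, and Mmp8 does not. In DSS+ImP over DSS, Mmp3, Mmp10, Mmp13 and Mmp8 rose and Mmp7 fell. Capitals mark TGAGTCA or its reverse complement TGACTCA, and likewise TATAAA or its reverse complement TTTATA. Mmp3 is at chr9:7445572-7445871, Mmp10 at chr9:7502092-7502391, Mmp13 at chr9:7272264-7272563, Mmp8 at chr9:7558179-7558478 and Mmp7 at chr9:7691840-7692139.
Mmp3: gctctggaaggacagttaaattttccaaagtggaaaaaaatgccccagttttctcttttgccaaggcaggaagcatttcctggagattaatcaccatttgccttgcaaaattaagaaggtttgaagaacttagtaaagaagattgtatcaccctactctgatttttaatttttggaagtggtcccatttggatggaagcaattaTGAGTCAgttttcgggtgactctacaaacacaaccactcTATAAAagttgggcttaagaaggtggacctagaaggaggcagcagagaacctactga
Mmp10: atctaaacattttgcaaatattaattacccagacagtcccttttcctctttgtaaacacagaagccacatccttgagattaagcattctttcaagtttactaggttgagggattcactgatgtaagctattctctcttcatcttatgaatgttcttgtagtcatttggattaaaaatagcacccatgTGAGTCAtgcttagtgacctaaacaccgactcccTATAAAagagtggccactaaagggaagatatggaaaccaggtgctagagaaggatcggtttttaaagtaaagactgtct
Mmp13: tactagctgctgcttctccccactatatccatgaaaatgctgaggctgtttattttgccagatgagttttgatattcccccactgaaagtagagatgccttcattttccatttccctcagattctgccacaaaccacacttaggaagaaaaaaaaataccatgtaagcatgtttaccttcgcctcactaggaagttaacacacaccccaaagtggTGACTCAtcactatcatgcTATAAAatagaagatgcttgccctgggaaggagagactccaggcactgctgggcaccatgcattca
Mmp8: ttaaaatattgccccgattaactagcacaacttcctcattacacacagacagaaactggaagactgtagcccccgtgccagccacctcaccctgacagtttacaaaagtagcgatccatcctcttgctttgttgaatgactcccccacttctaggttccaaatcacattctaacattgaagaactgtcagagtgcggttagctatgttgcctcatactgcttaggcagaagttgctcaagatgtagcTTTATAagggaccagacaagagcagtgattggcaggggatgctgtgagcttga
Mmp7: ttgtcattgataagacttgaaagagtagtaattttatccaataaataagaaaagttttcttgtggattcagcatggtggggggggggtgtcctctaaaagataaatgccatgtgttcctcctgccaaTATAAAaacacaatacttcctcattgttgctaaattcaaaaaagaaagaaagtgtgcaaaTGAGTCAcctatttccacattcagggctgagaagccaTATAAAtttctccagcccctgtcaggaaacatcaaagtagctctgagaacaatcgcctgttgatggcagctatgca
Counted from the start base as 0, the AP-1 consensus begins at position -46 in Mmp3, at -63 in Mmp10, at -35 in Mmp13 and at -63 in Mmp7. Mmp8 holds no such letters in this window. For Mmp7 the promoter with these letters is printed, and its other RefSeq promoter, at chr9:7692091-7692390, holds neither motif.

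Judged by mean FPKM over the 12 libraries, the best expressed members were the sheddase Adam10 at 26.9 and the gelatinase Mmp2 at 22.5. Adam9 followed at 22.2, Timp2 at 18.6, the membrane-type Mmp15 at 16.9 and Timp3 at 13.8 FPKM. The ranking of the Mmp genes differed between the groups. In DSS+ImP colon the leading Mmp genes were Mmp2 at 44.0 ± 17.5, Mmp10 at 35.6 ± 29.8, Mmp3 at 30.7 ± 25.7 and Mmp13 at 27.8 ± 21.7 FPKM (SD, n = 3). In Ctrl colon they were Mmp15 at 21.7 ± 3.05, Mmp2 at 14.3 ± 1.68, Mmp14 at 7.59 ± 0.615 and Mmp7 at 6.01 ± 0.878 FPKM (SD, n = 3). The spread of Mmp10, Mmp3 and Mmp13 in DSS+ImP is close to their mean, with 1 library, DSS+ImP 3, far above the others. As shares of the summed Mmp FPKM, Mmp10, Mmp3 and Mmp13 made up 15.7%, 13.5% and 12.3% in DSS+ImP and 0.261%, 0.352% and 3% in Ctrl, while Mmp15 made up 5.99% in DSS+ImP and 35.6% in Ctrl.

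Summed over the 22 Mmp genes, FPKM was 178, 355.6 and 147.6 in the DSS+ImP libraries, 76.52, 85.94 and 88.71 in DSS, 55.61, 53.95 and 57.46 in ImP, and 54.77, 61.65 and 65.85 in Ctrl. The sum over the 4 Timp genes was 81.7, 108.1 and 61.59 in DSS+ImP, 31.43, 29.96 and 30.9 in DSS, 26.01, 26.82 and 29.27 in ImP, and 21.36, 21.97 and 26.77 in Ctrl. Both sums were higher in every DSS+ImP library than in every other library. Their quotient, Mmp over Timp, was 2.18, 3.29 and 2.4 in DSS+ImP, 2.43, 2.87 and 2.87 in DSS, 2.14, 2.01 and 1.96 in ImP, and 2.56, 2.81 and 2.46 in Ctrl. The quotients of DSS+ImP, DSS and Ctrl overlapped, and those of ImP lay below all the others.

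**Figure D1:**
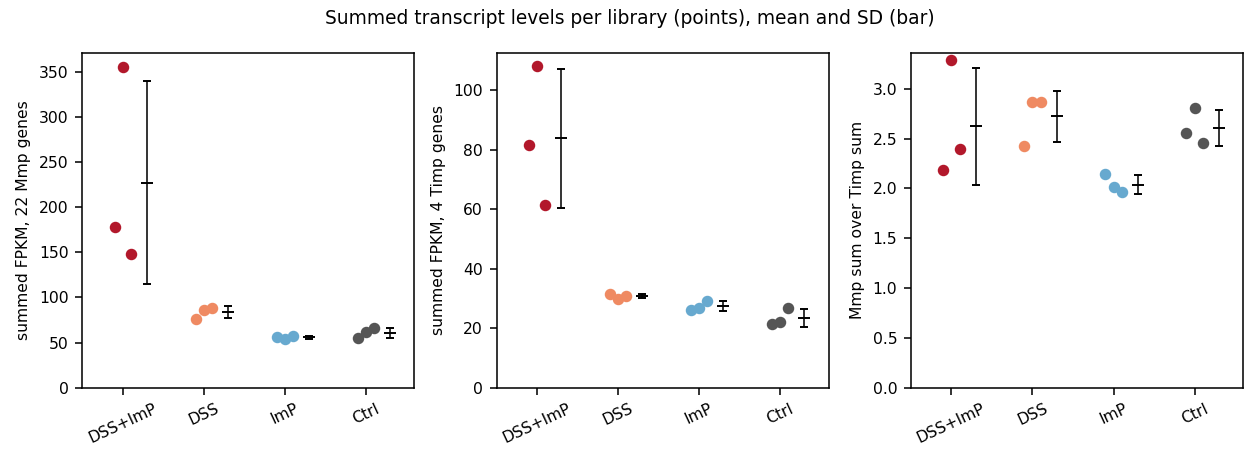
Summed FPKM of the 22 Mmp genes (left), of the 4 Timp genes (middle) and the first sum over the second (right), for each of the 12 libraries (points) with mean and SD of 3 libraries (bars). The DSS+ImP libraries have the highest sums on the left and in the middle, while on the right their quotients, 2.18 to 3.29, span those of DSS and Ctrl.

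The first comparison asks what DSS changed in colon without ImP. Of the 67 members tested, 8 rose in DSS against Ctrl, where 1.21% of all genes tested rose, and 0 fell, where 1.59% fell. The risers were the stromelysins Mmp3 and Mmp10, the gelatinase Mmp9, the membrane-type Mmp14, the proteoglycan-cutting Adamts1 and Adamts4, the inhibitor Timp1, and Adam3. At an unadjusted p under 0.05 there were 22 members in either direction, against 15.3% of all genes tested. DESeq2 called 12, of which 11 rose, and it called 7.8% of all genes to which it gave an adjusted p. In 20 of 67 members all DSS libraries lay above all Ctrl libraries, which held for 9.92% of all genes tested; in 3 they lay below, against 12.4%. The median log2 change was 0.44, against -0.02 over all genes tested; with the 3 members that had 0 counts in Ctrl set to their lower bound it stayed at 0.44. The count of 8 was 3 without Ctrl 4, 4 without Ctrl 1 or Ctrl 5 and 5 without DSS 3. Over all genes, 623 were called on all 12 libraries. That number was 268 without Ctrl 4, 332 without Ctrl 1, 409 without Ctrl 5 and 368 without DSS 3. Between DSS 2 and the Ctrl libraries alone, which share the liver trace, the call was made for 4 members, Mmp3, Mmp10, Adamts1 and Mmp13, with the spread of the lone DSS library taken from the Ctrl libraries; 1.26% of all genes were called there. With the library set as a term it was made for 2, Mmp10 and Adam3, and for 0.233% of all genes. Of the members not called with that term, Mmp3 had a log2 change of 3.85, Timp1 of 2.46, Adamts1 of 1.66, Adamts4 of 1.24, Mmp14 of 0.56 and Mmp9 of 1.303. On all 12 libraries without the term these changes were 3.75 for Mmp3, 2.49 for Timp1, 1.56 for Adamts1, 1.54 for Adamts4, 0.64 for Mmp14 and 2.42 for Mmp9.

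The comparison of DSS+ImP with DSS asks what ImP changed in colitis. Of the 67 members tested, 23 rose, where 3.99% of all genes tested rose, and 2 fell, where 4.04% fell. The risers were 9 of 19 tested Mmp genes, 3 of 20 Adam, 6 of 19 Adamts, 2 of 5 Adamtsl and 3 of 4 Timp genes; the members that fell were Mmp7 and Adamts17. In 32 of 67 all DSS+ImP libraries lay above all DSS libraries, which held for 14.2% of all genes tested, and in 6 they lay below, against 14.3%. The median log2 change was 0.57, against 0.02 over all genes tested. DSS+ImP 3 was the highest DSS+ImP library for all 23 risers, and DSS+ImP 4 the lowest for 18 of them. The count of 25 called members was 12 without DSS+ImP 3, 13 without DSS+ImP 2, 11 without DSS 5 and 15 without DSS 2. It was 12 when only the DSS+ImP and DSS libraries entered the fit. Over all genes, 1789 were called on all 12 libraries. That number was 491 without DSS+ImP 3, 820 without DSS+ImP 2, 522 without DSS 5 and 758 without DSS 2. It was 721 when only these groups entered the fit. Calls that held with any of the 12 libraries left out were those of Mmp9, Mmp13, Mmp14, Mmp19, Adam8, Adamts1, Adamts4, Adamts9, Timp1 and Timp3. Of these, the call of Mmp13 was lost when only the groups compared entered the fit (adjusted p = 0.0578). With the replicate number as a block, those of Mmp13 (adjusted p = 0.078) and Timp3 (adjusted p = 0.0533) were lost.

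**Figure D2:**
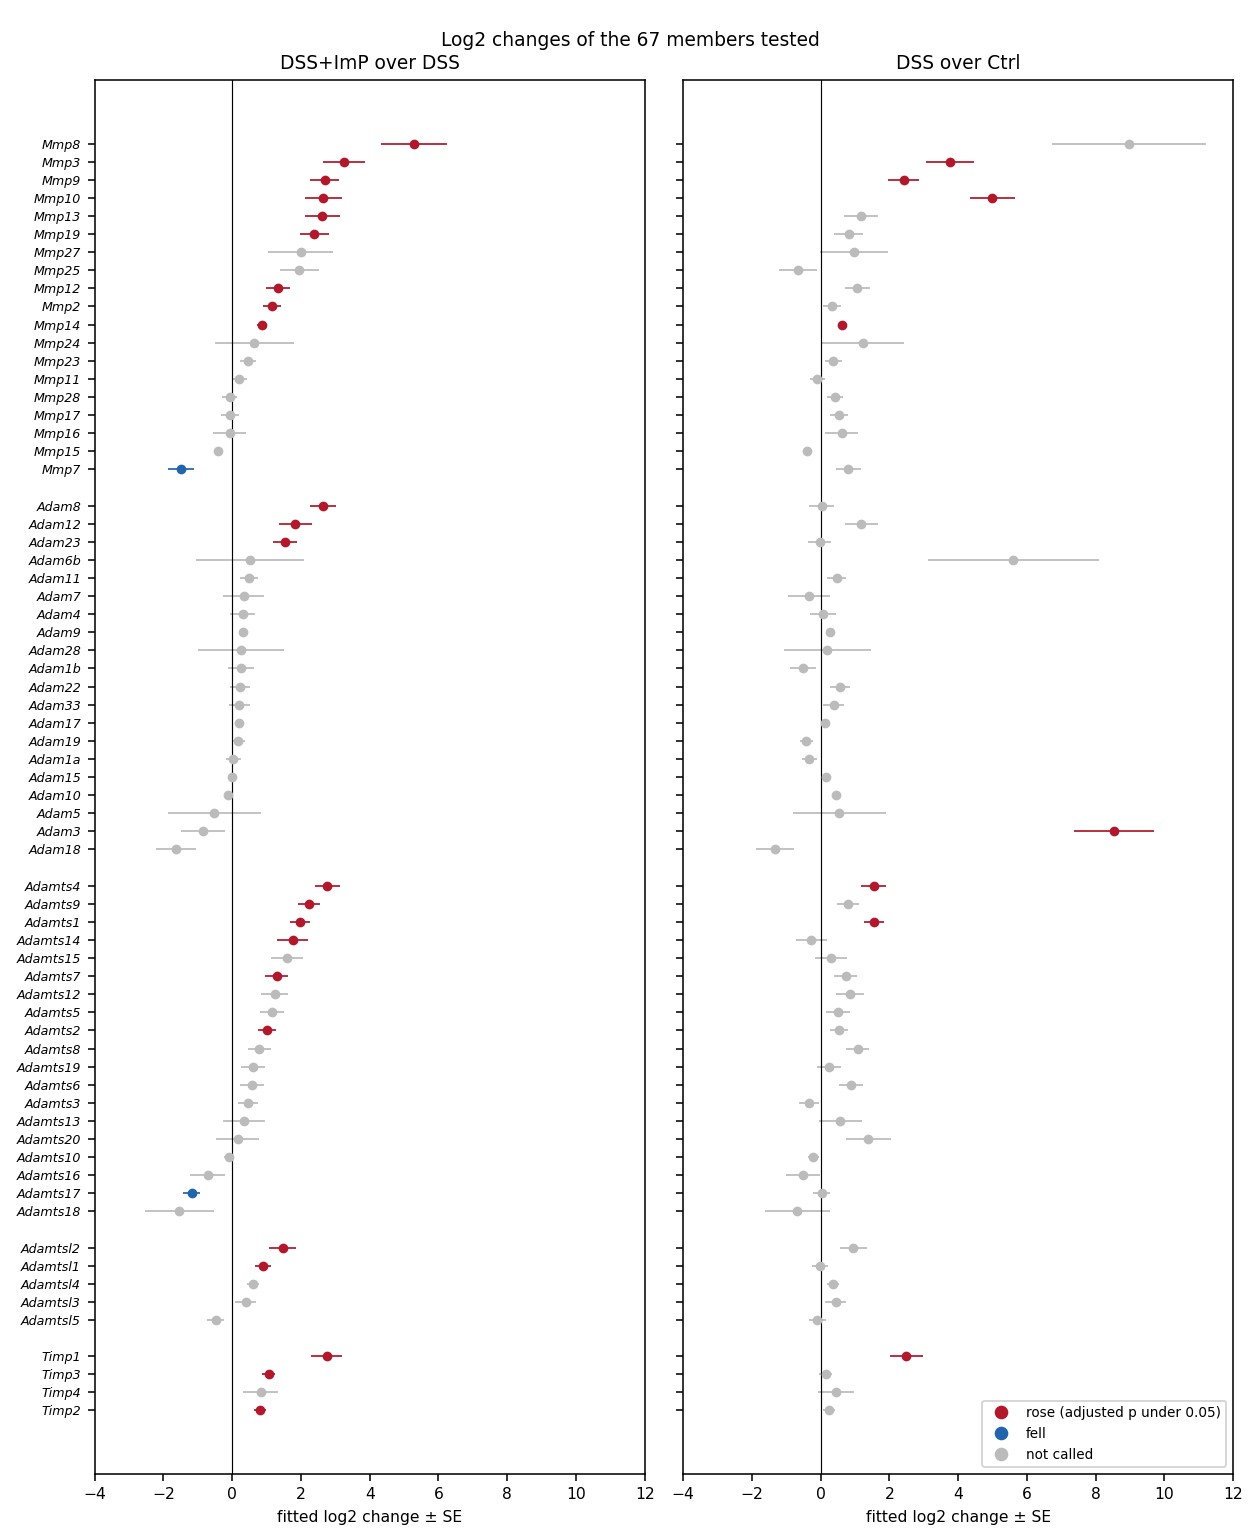
Fitted log2 change ± SE of the 67 tested members by family, for DSS+ImP over DSS (left) and DSS over Ctrl (right); red marks members that rose, blue members that fell and grey members that were not called. On the left 23 points are red and 2 blue, and on the right 8 are red; on the right the far points of Mmp8, Adam3 and Adam6b belong to genes with 0 counts in Ctrl, where the fitted value depends on the fit's prior.

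Among the genes of the chromosome 9 run, the stromelysins Mmp3 (ENSMUSG00000043613) and Mmp10 (ENSMUSG00000047562), which cut proteoglycans and fibronectin and activate other MMP precursors, were near the detection limit in Ctrl colon and among the leading Mmp genes in DSS+ImP colon. Mmp3 had 18.1, 113 and 46.1 CPM in DSS+ImP libraries, 6.59, 7.90 and 3.97 in DSS, 0.484, 1.61 and 1.19 in ImP, and 0.196, 0.727 and 0.443 in Ctrl. All DSS+ImP libraries were above all DSS libraries, which in turn were above all ImP and Ctrl libraries. Mmp3 rose by 3.26 ± 0.61 (adjusted p = 0.0104) in DSS+ImP over DSS and by 3.75 ± 0.70 (adjusted p = 0.0145) in DSS over Ctrl on the log2 scale. Mmp10 had 27.8, 127 and 40.4 CPM in DSS+ImP libraries, 13.8, 11.7 and 5.58 in DSS, 0.935, 1.82 and 1.04 in ImP, and 0.196, 0.309 and 0.460 in Ctrl. No 2 groups overlapped in Mmp10, in the order DSS+ImP, DSS, ImP, Ctrl. Its log2 change was 2.65 ± 0.53 (adjusted p = 0.0127) in DSS+ImP over DSS and 4.99 ± 0.66 (adjusted p = 0.00296) in DSS over Ctrl. Without DSS+ImP 3 the changes in DSS+ImP over DSS were 2.39 for Mmp3 and 1.73 for Mmp10. The same calls were lost without DSS 5, at adjusted p of 0.0551 for Mmp3 and 0.0588 for Mmp10. In DSS over Ctrl, Mmp3 lost its call without Ctrl 1 or Ctrl 5 (adjusted p up to 0.0734), and Mmp10 kept it with any library left out.

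The collagenases Mmp13 (ENSMUSG00000050578), which cuts fibrillar collagen in rodents, and Mmp8 (ENSMUSG00000005800), stored in neutrophil granules, rose in DSS+ImP over DSS. Mmp13 had 37.2, 149 and 50.9 CPM in DSS+ImP libraries, 20.3, 12.2 and 6.02 in DSS, 5.55, 6.44 and 7.23 in ImP, and 5.53, 4.94 and 6.62 in Ctrl. The DSS+ImP libraries were above all others, and the DSS libraries overlapped those of ImP and Ctrl. Mmp13 rose by 2.62 ± 0.50 (adjusted p = 0.011) in DSS+ImP over DSS, and by 1.78 without DSS+ImP 3; in DSS over Ctrl its change was 1.17 ± 0.49 (adjusted p = 0.274). Mmp8 had 27.1, 73.6 and 14.8 CPM in DSS+ImP libraries, 0.469, 1.75 and 0.720 in DSS, 0, 0.390 and 0 in ImP, and 0 in each Ctrl library. Its log2 change in DSS+ImP over DSS was 5.29 ± 0.96 (adjusted p = 0.0121); it was 6.004 without DSS 3 and 4.42 without DSS+ImP 3, and the call was lost without DSS+ImP 3 or DSS 5 (adjusted p up to 0.0641). Ctrl had 0 counts of Mmp8, so DSS was at least 14.2-fold higher (adjusted p = 0.0674), with the floor set at 12 counts over the Ctrl group; that call was not made. Mmp1a, the mouse relative of the human interstitial collagenase, had counts in DSS+ImP 3 and DSS 2 only, at 0.114 and 0.0722 CPM, and was not tested.

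Mmp12 (ENSMUSG00000049723), the macrophage elastase, rose, and Mmp7 (ENSMUSG00000018623), a matrilysin made by epithelial cells that processes defensins in the mouse small intestine, fell in DSS+ImP against DSS. Mmp12 had 4.78, 8.06 and 3.95 CPM in DSS+ImP libraries, 1.71, 2.37 and 2.53 in DSS, 0.742, 0.894 and 1.59 in ImP, and 1.27, 0.981 and 0.904 in Ctrl. All DSS+ImP libraries were above all DSS libraries, and these above all ImP and Ctrl libraries. Its log2 change was 1.34 ± 0.35 (adjusted p = 0.0366) in DSS+ImP over DSS; the call was lost without any 1 of 6 libraries (DSS+ImP 2 or 3, DSS 2, 3 or 5, or Ctrl 4), at adjusted p up to 0.183. Mmp7 had 5.56, 2.73 and 5.72 CPM in DSS+ImP libraries, 13.5, 8.69 and 17.2 in DSS, 5.48, 3.41 and 2.21 in ImP, and 8.49, 8.07 and 6.07 in Ctrl. The DSS libraries were the highest, and the DSS+ImP libraries overlapped those of ImP. Its log2 change was -1.49 ± 0.37 (adjusted p = 0.0309) in DSS+ImP over DSS, with the call lost without DSS+ImP 2 or 3 or DSS 2 or 5 (adjusted p up to 0.122), and 0.80 ± 0.36 (adjusted p = 0.321) in DSS over Ctrl. Mmp7 carries the AP-1 letters in the promoter printed above. In DSS+ImP over DSS it moved against Mmp3, Mmp10 and Mmp13. In DSS over Ctrl its uncalled change had the same sign as theirs. The part of these letters was not tested. Of the other genes of the run, Mmp27 was at 0.954, 1.13 and 0.507 CPM in DSS+ImP and 0.0722, 0.186 and 0.383 CPM in DSS, without a call (adjusted p = 0.223), and Mmp20, the enamel protease, was at or below 0.159 CPM in every library and not tested.

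**Figure D3:**
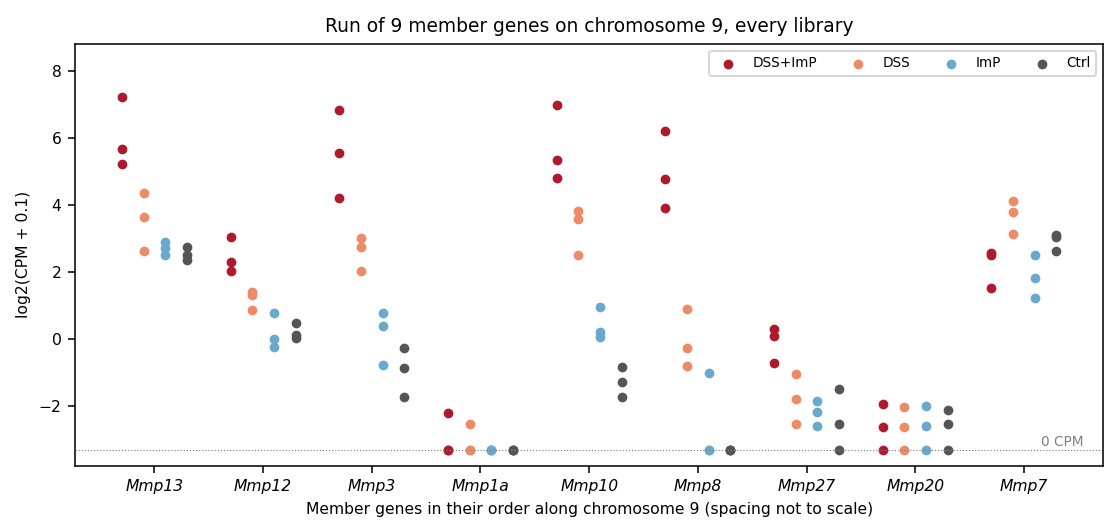
Level of the 9 member genes of the chromosome 9 run in each library, as log2(CPM + 0.1), in their order along the chromosome; points are libraries, coloured by group, and the dotted line marks 0 CPM. DSS+ImP points are highest for Mmp13, Mmp12, Mmp3, Mmp10 and Mmp8, DSS points are highest for Mmp7, and Mmp1a and Mmp20 lie near the bottom in all groups.

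The gelatinases cut denatured collagen and basement membrane collagen; Mmp9 (ENSMUSG00000017737) is stored in neutrophil granules and Mmp2 (ENSMUSG00000031740) is made mainly by fibroblasts. Mmp9 had 23.3, 41.4 and 16.01 CPM in DSS+ImP libraries, 1.93, 6.76 and 3.83 in DSS, 0.935, 0.894 and 1.33 in ImP, and 0.713, 0.691 and 0.938 in Ctrl. The groups DSS+ImP and DSS stood apart from each other and from ImP and Ctrl, which overlapped. Mmp9 rose by 2.69 ± 0.43 (adjusted p = 0.00608) in DSS+ImP over DSS and by 2.42 ± 0.45 (adjusted p = 0.0149) in DSS over Ctrl; the second call was lost without Ctrl 1 or Ctrl 4 (adjusted p up to 0.0741). Between DSS 2 and the Ctrl libraries alone the Mmp9 change was 1.33, without a call (adjusted p = 0.313). Mmp2 had 170.1, 206 and 92.4 CPM in DSS+ImP libraries, 46.7, 83.4 and 80.7 in DSS, 55.2, 51.6 and 54.7 in ImP, and 51.6, 56.5 and 60.3 in Ctrl. Only the DSS+ImP libraries stood apart in Mmp2. It rose by 1.15 ± 0.26 (adjusted p = 0.0217) in DSS+ImP over DSS, a call lost without DSS+ImP 2 or 3 or DSS 2 or 5 (adjusted p up to 0.0987), and its change was 0.32 ± 0.26 (adjusted p = 0.623) in DSS over Ctrl.

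The 14 neutrophil markers, S100a8, S100a9 and Ly6g among them, summed to 421.8 to 1455 CPM in DSS+ImP libraries, 56.65 to 138.6 in the DSS libraries, 70.59 to 264.7 in the ImP libraries and 7.599 to 12.42 in the Ctrl libraries, with the highest value in DSS+ImP 3. Of the 12 tested, 8 rose in DSS+ImP over DSS and 0 fell. Of the defining markers, Mpo was at 0 in DSS, Mpo, Elane, Mrgpra2b and Stfa2l1 in ImP, and Ngp, Elane, Mrgpra2b and Stfa2l1 in Ctrl. The 12 monocyte and macrophage markers summed to 696.3 to 1335 CPM in DSS+ImP, 334.5 to 611.2 in the DSS libraries, 503.5 to 600.9 in the ImP libraries and 445.4 to 481.9 in the Ctrl libraries, and 8 of 12 rose in DSS+ImP over DSS. The 10 fibroblast markers summed to 2162 to 3600 CPM in DSS+ImP, 677.3 to 1563 in the DSS libraries, 891.1 to 1033 in the ImP libraries and 761.9 to 922.1 in the Ctrl libraries, and 6 of 10 rose. The 10 epithelial markers summed to 15330 to 21720 CPM in DSS+ImP, 24900 to 26340 in the DSS libraries, 23640 to 32720 in the ImP libraries and 32430 to 36250 in the Ctrl libraries, and 2 of 10 fell. No macrophage, fibroblast or epithelial marker was at 0 in a whole group. The 6 endothelial markers summed to 154.2 to 237.4 CPM in DSS+ImP and 115.8 to 132.7 CPM in DSS, and 3 of 6 rose; the 6 T and NK cell markers summed to 32.37 to 40.44 CPM in DSS+ImP and 43.85 to 53.61 CPM in DSS, and 2 of 6 fell. None of the 6 smooth muscle or 5 B and plasma cell markers was called. Over all genes tested, 3.99% rose and 4.04% fell in this comparison. Mitochondrial genes took 4.673% to 5.138% of the counts in DSS+ImP libraries and 6.001% to 6.338% in DSS libraries. In DSS+ImP over DSS these values moved with Mmp8, Mmp9, Mmp12, Mmp2 and Mmp7; their part in the results was not tested. The ImP 1 library had a higher neutrophil sum, 264.7 CPM, than every DSS library, with Mmp8 at 0 and Mmp9 at 0.935 CPM. All DSS libraries were above all Ctrl libraries in the neutrophil sum and in Mmp9. They were also above all Ctrl libraries in Mmp7 and below all of them in the epithelial sum. The part of the cell types in these values was not tested either.

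**Figure D4:**
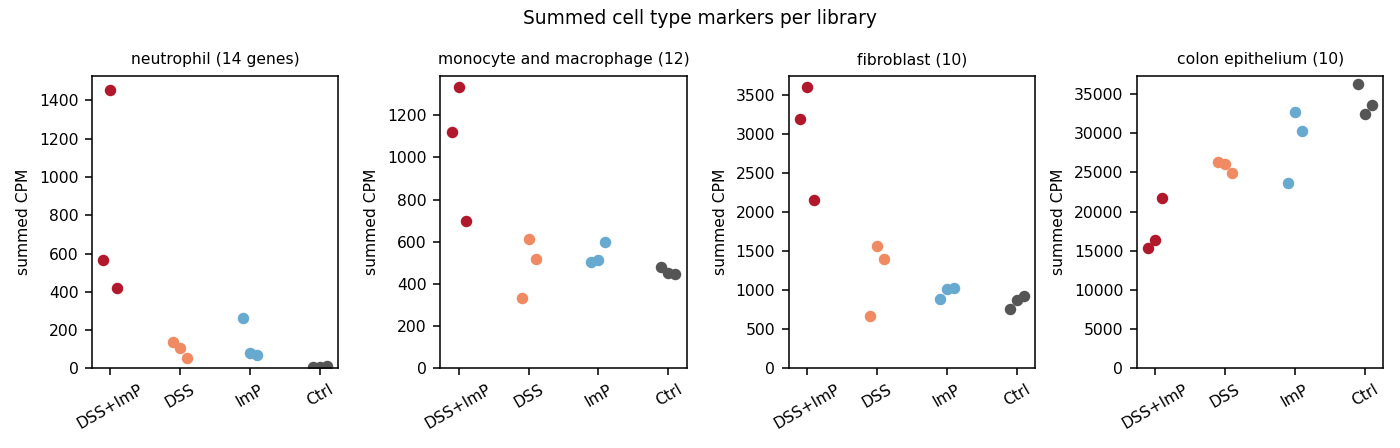
Summed CPM of the neutrophil, monocyte and macrophage, fibroblast and colon epithelium markers in each library (points) by group. The DSS+ImP libraries are highest in the first 3 panels and lowest in the last, and DSS+ImP 3 has the highest neutrophil sum, 1455 CPM.

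Of the membrane-bound and remaining MMPs, Mmp14 (ENSMUSG00000000957), which activates the Mmp2 precursor at the cell surface, rose in both steps. Mmp14 had 158, 178 and 114 CPM in DSS+ImP libraries, 77.8, 89.2 and 79.9 in DSS, 66.6, 60.2 and 65.9 in ImP, and 50.8, 53.3 and 54.8 in Ctrl. No 2 groups overlapped in Mmp14, in the order DSS+ImP, DSS, ImP, Ctrl. The changes were small, at 0.87 ± 0.14 (adjusted p = 0.00566) in DSS+ImP over DSS and 0.64 ± 0.14 (adjusted p = 0.0285) in DSS over Ctrl. The replicates were tight in DSS, ImP and Ctrl (SD 6.04, 3.53 and 2.05 CPM) and further apart in DSS+ImP (SD 32.8 CPM). The call in DSS over Ctrl was lost without any 1 of the 6 DSS and Ctrl libraries (adjusted p up to 0.103). Mmp19 (ENSMUSG00000025355), a secreted MMP that cuts basement membrane proteins, had 44.2, 72.9 and 20.3 CPM in DSS+ImP libraries, 7.31, 9.15 and 9.78 in DSS, 7.06, 16.1 and 7.93 in ImP, and 4.44, 4.49 and 6.02 in Ctrl. The DSS+ImP libraries were above all others. Mmp19 rose by 2.39 ± 0.42 (adjusted p = 0.00767) in DSS+ImP over DSS, and its change was 0.81 ± 0.41 (adjusted p = 0.372) in DSS over Ctrl. Mmp15 (ENSMUSG00000031790), another membrane-type MMP and the leading Mmp gene of Ctrl colon, was lowest in DSS+ImP and highest in Ctrl. Mmp15 had 78.6, 77.6 and 77.8 CPM in DSS+ImP libraries, 89.0, 104 and 117 in DSS, 102, 85.1 and 107 in ImP, and 125, 132 and 152 in Ctrl. All DSS+ImP libraries were below all others, and all Ctrl libraries above all others, but no call was made (log2 change -0.41 ± 0.12 (adjusted p = 0.0577) in DSS+ImP over DSS and -0.40 ± 0.12 (adjusted p = 0.105) in DSS over Ctrl). Mmp11, Mmp16, Mmp17, Mmp23, Mmp24, Mmp25 and Mmp28 were not called in any comparison; the largest change in DSS+ImP over DSS among them was that of Mmp25, a membrane-type MMP of neutrophils, at 1.95 ± 0.57 (adjusted p = 0.0565).

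Among the ADAM proteases, Adam8, Adam12 and Adam23 rose in DSS+ImP over DSS, and the sheddases Adam10, Adam17 and Adam9 were not called there. Adam8 (ENSMUSG00000025473), a sheddase of leukocytes, had 40.2, 82.1 and 28.4 CPM in DSS+ImP libraries, 9.01, 9.20 and 6.01 in DSS, 8.67, 6.03 and 6.24 in ImP, and 5.39, 10.4 and 7.96 in Ctrl. The DSS+ImP libraries were all above the other 9, which overlapped. Adam8 rose by 2.64 ± 0.37 (adjusted p = 0.00477) in DSS+ImP over DSS, and its change in DSS over Ctrl was 0.03 ± 0.36 (adjusted p = 0.983). Adam12 (ENSMUSG00000054555), a protease of activated mesenchymal cells, had 10.8, 12.5 and 4.80 CPM in DSS+ImP libraries, 1.14, 4.62 and 2.10 in DSS, 1.06, 1.07 and 1.40 in ImP, and 0.749, 1.25 and 1.45 in Ctrl. The lowest DSS+ImP library was only just above the highest DSS library. Its log2 change was 1.83 ± 0.48 (adjusted p = 0.038) in DSS+ImP over DSS and 2.53 without DSS 3, and the call was lost without any 1 of 7 libraries (DSS+ImP 2 or 3, DSS 2 or 5, ImP 1, or Ctrl 4 or 5; adjusted p up to 0.154). Adam23 (ENSMUSG00000025964), a family member without protease activity known from the nervous system, had 29.0, 36.3 and 11.60 CPM in DSS+ImP libraries, 7.71, 10.1 and 8.67 in DSS, 9.25, 13.0 and 14.9 in ImP, and 8.94, 7.14 and 10.9 in Ctrl. DSS+ImP 4 was within the range of the ImP libraries. Adam23 rose by 1.54 ± 0.34 (adjusted p = 0.0203) in DSS+ImP over DSS, a call lost without DSS+ImP 2 or 3 or DSS 2 or 5 (adjusted p up to 0.0954). The 6 enteric neuron and glia markers summed to 39.04 to 49.91 CPM in DSS+ImP, 23.01 to 36.34 in the DSS libraries, 17.43 to 27.4 in the ImP libraries and 13.47 to 23.15 in the Ctrl libraries. In DSS+ImP over DSS 1 of 6 rose, where 3.99% of all genes tested rose. None of these markers was at 0 in a whole group, and their part in the Adam23 result was not tested.

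Adam10 (ENSMUSG00000054693), the sheddase that opens Notch receptors and cuts cadherins, had 136, 159.9 and 178 CPM in DSS+ImP libraries, 166, 176 and 178 in DSS, 146, 146 and 127 in ImP, and 119, 139.5 and 124 in Ctrl. All DSS libraries were above all Ctrl libraries, with a log2 change of 0.44 ± 0.11 (adjusted p = 0.0527) that missed the threshold, and DSS+ImP overlapped DSS (-0.13 ± 0.11 (adjusted p = 0.52)). Adam9 (ENSMUSG00000031555), a widely expressed sheddase, had 111, 151 and 124 CPM in DSS+ImP libraries, 98.4, 104 and 110.1 in DSS, 90.8, 97.9 and 94.2 in ImP, and 79.8, 84.4 and 91.7 in Ctrl. Its changes were 0.31 ± 0.11 (adjusted p = 0.106) in DSS+ImP over DSS and 0.29 ± 0.11 (adjusted p = 0.214) in DSS over Ctrl, without a call. Adam15 (ENSMUSG00000028041), found in epithelium and endothelium, had 55.2, 60.4 and 53.2 CPM in DSS+ImP libraries, 52.1, 62.2 and 53.8 in DSS, 60.4, 70.5 and 61.2 in ImP, and 55.1, 50.7 and 45.9 in Ctrl. Its groups overlapped apart from ImP over Ctrl, and it was called in none of the comparisons. Adam17, the sheddase of tumour necrosis factor, was at 51.9, 56.8 and 48.6 CPM in DSS+ImP and 42.7, 51.2 and 43.6 CPM in DSS, with a change of 0.19 ± 0.10 (adjusted p = 0.245).

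Adam3 (ENSMUSG00000031553), known from sperm, had 0.172, 0.758 and 0.292 CPM in DSS+ImP libraries, 1.07, 0.603 and 0.536 in DSS, 0.403, 0.406 and 0.224 in ImP, and 0 in each Ctrl library. With 0 counts in Ctrl and a floor of 12 counts over the group, it was at least 10.2-fold higher in DSS (adjusted p = 0.00528) and at least 4.82-fold higher in ImP (adjusted p = 0.017) than in Ctrl. The first call held with any library left out, and the second was lost without Ctrl 1 or Ctrl 4 (adjusted p up to 0.0662). These are low levels: the 3 DSS libraries held 133 estimated counts of Adam3 together and the 3 ImP libraries 65. Between DSS 2 and the Ctrl libraries alone the call was not made (adjusted p = 0.0853), and with the library set as a term it held in DSS over Ctrl (0.0324) and not in ImP over Ctrl (0.234). In GENCODE M21, 199 exon bases of Adam3 are shared with Gm45528 on the opposite strand.

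The proteoglycan-cutting ADAMTS proteases Adamts1 (ENSMUSG00000022893), Adamts4 (ENSMUSG00000006403) and Adamts9 (ENSMUSG00000030022), which cut versican or aggrecan, rose together in DSS+ImP over DSS. Adamts1 had 53.3, 122 and 60.3 CPM in DSS+ImP libraries, 21.4, 21.7 and 16.9 in DSS, 11.5, 7.10 and 10.1 in ImP, and 5.85, 6.40 and 8.10 in Ctrl. DSS+ImP libraries were above all DSS libraries, and these above all ImP and Ctrl libraries. It rose by 1.97 ± 0.29 (adjusted p = 0.00499) in DSS+ImP over DSS and by 1.56 ± 0.29 (adjusted p = 0.0149) in DSS over Ctrl. Adamts4 had 43.4, 70.4 and 28.4 CPM in DSS+ImP libraries, 5.65, 9.01 and 6.27 in DSS, 3.40, 1.999 and 2.82 in ImP, and 1.46, 3.23 and 2.49 in Ctrl. Its groups stood in the same order without overlap between DSS+ImP, DSS and the rest, with a rise of 2.76 ± 0.36 (adjusted p = 0.00419) in DSS+ImP over DSS and of 1.54 ± 0.36 (adjusted p = 0.0425) in DSS over Ctrl. Adamts9 had 24.8, 39.3 and 21.9 CPM in DSS+ImP libraries, 4.31, 7.78 and 6.31 in DSS, 3.69, 4.11 and 5.59 in ImP, and 2.19, 3.65 and 4.69 in Ctrl. Only the DSS+ImP libraries stood apart, with a rise of 2.22 ± 0.32 (adjusted p = 0.00494) over DSS, while the change in DSS over Ctrl was 0.80 ± 0.32 (adjusted p = 0.234). In DSS over Ctrl, the call of Adamts1 was lost without Ctrl 1 or Ctrl 4 (adjusted p up to 0.0757). That of Adamts4 was lost without any 1 of 8 libraries (DSS+ImP 2, DSS 2, 3 or 5, ImP 4, or Ctrl 1, 4 or 5; adjusted p up to 0.148). Adamts5, another aggrecanase, was at 5.21, 8.21 and 6.49 CPM in DSS+ImP and 1.86, 3.93 and 3.13 CPM in DSS, with a change of 1.16 ± 0.35 (adjusted p = 0.0625) that was not called.

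Adamts2 (ENSMUSG00000036545) and Adamts14 (ENSMUSG00000059901), which trim the amino end of procollagens, rose in DSS+ImP over DSS, and Adamts3, the remaining member of that subgroup, was not called (0.45 ± 0.29 (adjusted p = 0.395)). Adamts2 had 29.1, 30.4 and 16.6 CPM in DSS+ImP libraries, 8.66, 15.0 and 13.9 in DSS, 12.2, 14.2 and 12.4 in ImP, and 6.55, 8.58 and 10.8 in Ctrl. Adamts14 had 6.91, 7.65 and 3.43 CPM in DSS+ImP libraries, 0.957, 1.72 and 2.62 in DSS, 3.82, 1.97 and 2.56 in ImP, and 1.18, 2.45 and 2.75 in Ctrl. In both genes DSS+ImP was above DSS in every library, and for Adamts14 it overlapped ImP. The log2 changes were 1.02 ± 0.26 (adjusted p = 0.0352) for Adamts2 and 1.76 ± 0.45 (adjusted p = 0.0344) for Adamts14. Each call was lost without any 1 of 5 libraries: DSS+ImP 2 or 3, DSS 2 or 5 for both, Ctrl 4 for Adamts2 and DSS 3 for Adamts14, at adjusted p up to 0.149 and 0.135.

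Adamts7 (ENSMUSG00000032363), which cuts cartilage oligomeric matrix protein, had 8.64, 15.5 and 4.64 CPM in DSS+ImP libraries, 3.70, 4.22 and 3.79 in DSS, 3.26, 4.36 and 3.81 in ImP, and 2.10, 2.73 and 2.25 in Ctrl. The difference rested most on DSS+ImP 3, and DSS+ImP 4 was close to the DSS range. The change was 1.297 ± 0.34 (adjusted p = 0.0376) in DSS+ImP over DSS and 0.77 without DSS+ImP 3; the call was lost without any 1 of 8 libraries (DSS+ImP 2 or 3, DSS 2, 3 or 5, ImP 4, or Ctrl 4 or 5; adjusted p up to 0.184). Adamts17 (ENSMUSG00000058145), linked to fibrillin microfibrils, was the other member that fell. Adamts17 had 2.25, 2.09 and 3.09 CPM in DSS+ImP libraries, 5.79, 4.44 and 6.57 in DSS, 4.09, 2.83 and 2.71 in ImP, and 6.08, 5.71 and 4.71 in Ctrl. All DSS+ImP libraries were below all DSS and Ctrl libraries and overlapped ImP. The change was -1.18 ± 0.25 (adjusted p = 0.0157) in DSS+ImP over DSS, a call lost without DSS+ImP 2 or 3 or DSS 5 (adjusted p up to 0.0789). Adamts10 (ENSMUSG00000024299), also tied to fibrillin and the third Adamts gene by FPKM, had 18.7, 23.3 and 16.4 CPM in DSS+ImP libraries, 21.3, 21.2 and 20.0 in DSS, 21.3, 21.2 and 23.3 in ImP, and 19.4, 24.8 and 28.1 in Ctrl. Its groups overlapped, with a change of -0.10 ± 0.15 (adjusted p = 0.758) in DSS+ImP over DSS.

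Of the ADAMTS-like genes, Adamtsl1 and Adamtsl2 rose in DSS+ImP over DSS. Adamtsl2 (ENSMUSG00000036040), which binds fibrillin and latent TGF-beta binding protein, had 10.3, 16.5 and 8.24 CPM in DSS+ImP libraries, 3.97, 3.96 and 4.71 in DSS, 2.69, 1.46 and 2.83 in ImP, and 1.34, 1.56 and 3.62 in Ctrl. Adamtsl1 (ENSMUSG00000066113) had 5.96, 10.04 and 5.78 CPM in DSS+ImP libraries, 4.03, 3.603 and 4.02 in DSS, 3.98, 3.14 and 2.80 in ImP, and 3.89, 3.96 and 3.97 in Ctrl. In both genes the DSS+ImP libraries were above all the others. The changes were 1.47 ± 0.39 (adjusted p = 0.0391) for Adamtsl2 and 0.90 ± 0.23 (adjusted p = 0.0355) for Adamtsl1, and that of Adamtsl1 was 0.60 without DSS+ImP 3. The calls were lost without any 1 of 5 libraries for Adamtsl2 (DSS+ImP 2 or 3, DSS 2, 3 or 5; adjusted p up to 0.18) and of 7 for Adamtsl1 (these and Ctrl 4 or 5; up to 0.173). Adamtsl4 (ENSMUSG00000015850), a fibrillin-binding protein and the leading gene of this group by FPKM, had 24.02, 29.3 and 18.7 CPM in DSS+ImP libraries, 14.7, 17.1 and 15.3 in DSS, 17.7, 17.0 and 17.0 in ImP, and 10.2, 11.61 and 15.1 in Ctrl. All DSS+ImP libraries were above all DSS libraries, without a call (0.61 ± 0.18 (adjusted p = 0.0527)). Adamtsl5 (ENSMUSG00000043822) had 8.68, 8.51 and 4.35 CPM in DSS+ImP libraries, 11.8, 8.97 and 9.24 in DSS, 8.64, 5.82 and 5.86 in ImP, and 10.5, 11.01 and 10.5 in Ctrl. All DSS+ImP libraries were below all DSS libraries, again without a call (-0.48 ± 0.25 (adjusted p = 0.278)).

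Among the inhibitors, Timp1, Timp2 and Timp3 rose in DSS+ImP over DSS, and Timp1 also rose in DSS over Ctrl. Timp1 (ENSMUSG00000001131), the inducible inhibitor of secreted MMPs, had 19.5, 38.8 and 24.02 CPM in DSS+ImP libraries, 3.99, 5.58 and 2.70 in DSS, 1.23, 1.09 and 1.52 in ImP, and 1.39, 0.309 and 0.478 in Ctrl. DSS+ImP libraries were above all DSS libraries, and these above all ImP and Ctrl libraries, of which Ctrl 1 was the highest Ctrl library. Timp1 rose by 2.75 ± 0.46 (adjusted p = 0.00677) in DSS+ImP over DSS and by 2.49 ± 0.48 (adjusted p = 0.0168) in DSS over Ctrl. The second change was 3.37 without Ctrl 1, and its call was lost without DSS 3, Ctrl 4 or Ctrl 5 (adjusted p up to 0.0682) and between DSS 2 and the Ctrl libraries alone (0.193), where the change was as large, 2.48. Timp2 (ENSMUSG00000017466), which with Mmp14 takes part in activating Mmp2, had 144, 146 and 86.5 CPM in DSS+ImP libraries, 64.5, 71.1 and 78.8 in DSS, 63.1, 70.2 and 67.7 in ImP, and 60.5, 54.1 and 66.0 in Ctrl. DSS+ImP 4 was near the DSS range, and the other two DSS+ImP libraries were alike. Timp2 rose by 0.81 ± 0.17 (adjusted p = 0.016) in DSS+ImP over DSS, a call lost without DSS+ImP 2 or 3 or DSS 2 (adjusted p up to 0.076). Timp3 (ENSMUSG00000020044), which binds to matrix and also blocks Adam17 and aggrecanases, had 196, 264 and 160.0 CPM in DSS+ImP libraries, 122, 82.1 and 93.4 in DSS, 105, 101.5 and 112 in ImP, and 74.6, 89.1 and 105 in Ctrl. The DSS+ImP libraries were above all the others, with a rise of 1.06 ± 0.19 (adjusted p = 0.0086) over DSS, and DSS and Ctrl overlapped (0.15 ± 0.19 (adjusted p = 0.794)). Timp4 (ENSMUSG00000030317), the least expressed inhibitor here, had 1.72, 0.872 and 0.9996 CPM in DSS+ImP libraries, 0.523, 0.448 and 1.04 in DSS, 1.902, 0.845 and 2.09 in ImP, and 0.375, 0.309 and 0.785 in Ctrl. All DSS+ImP and all ImP libraries were above all Ctrl libraries, the other groups overlapped, and it was not called (0.83 ± 0.51 (adjusted p = 0.355) in DSS+ImP over DSS).

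**Figure D5:**
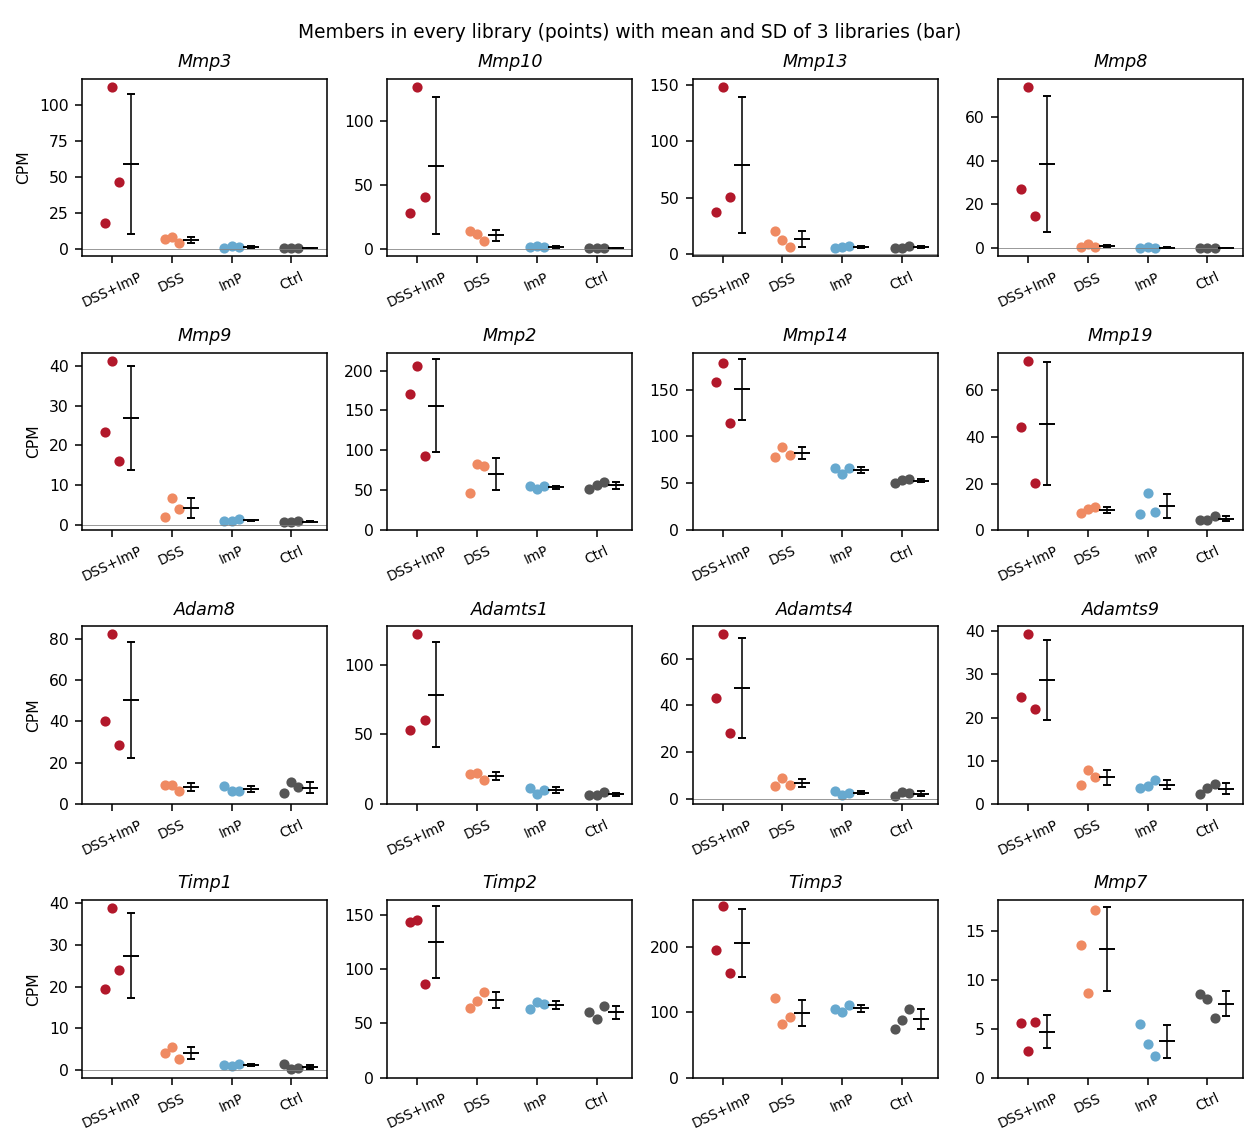
CPM of 16 members in each library (points) by group, with mean and SD of 3 libraries (bars); each panel has its own linear scale. In 15 panels the DSS+ImP libraries lie above all DSS libraries, with DSS+ImP 3 the highest of all libraries, and in the last, Mmp7, they lie below all DSS libraries.

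ImP was set against Ctrl to ask what it changed in colon without DSS. In this comparison 1 of 67 members rose, where 1.06% of all genes tested rose, and 0 fell, where 0.929% fell. The riser was Adam3. In 15 of 67 all ImP libraries lay above all Ctrl libraries, which held for 9.64% of all genes tested, and in 7 they lay below, against 11.6%. There were 19 members at an unadjusted p under 0.05 in either direction, against 15.2% of all genes tested. DESeq2 called 8, against 6.3% of all genes to which it gave an adjusted p, of which 6 rose (Adam3, Adam15, Adamts8, Adamts15, Mmp10 and Timp4) and 2 fell (Mmp15 and Adamts17). In edgeR the count of 1 became 3 without DSS+ImP 3 or DSS+ImP 4 and 0 without Ctrl 1 or Ctrl 4. Over all genes, the 443 called became 527, 518, 49 and 51 in the same order. Adamts15, a versican-cutting protease, had 43.5, 19.3 and 18.3 CPM in ImP and 7.12, 7.89 and 9.72 CPM in Ctrl, with no overlap and a change of 1.71 ± 0.48 (adjusted p = 0.0926) in edgeR. Adamts8 had 2.74, 4.94 and 3.95 CPM in ImP and 1.94, 1.29 and 1.11 CPM in Ctrl, with a change of 1.42 ± 0.35 (adjusted p = 0.0595). All Ctrl libraries carry the liver trace and all ImP libraries the pancreatic trace, and a fit with the library set as a term, which rests on the DSS libraries, called 0 members.

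DSS in ImP-treated colon was read from DSS+ImP against ImP. Of the 67 members tested, 24 rose, where 4.41% of all genes tested rose, and 0 fell, where 4.92% fell. At an unadjusted p under 0.05 there were 36 in either direction, against 23% of all genes tested. DESeq2 called 29, all of them up, against 16.9% of its genes in either direction. In 33 of 67 all DSS+ImP libraries lay above all ImP libraries, which held for 14.3% of all genes tested, and in 3 they lay below, against 13.8%. This comparison shares the DSS+ImP libraries with the one over DSS. The largest fitted changes were those of Mmp8 (8.22 ± 1.16 (adjusted p = 0.00255)), Mmp3 (5.75 ± 0.70 (adjusted p = 0.000679)), Mmp10 (5.68 ± 0.62 (adjusted p = 0.00043)) and Mmp9 (4.67 ± 0.48 (adjusted p = 0.000352)). Mmp8 had counts in 1 ImP library only, ImP 3, and without DSS+ImP 3 the changes were 7.34 for Mmp8, 4.88 for Mmp3 and 4.75 for Mmp10. Without ImP 4 the change of Mmp8 was 7.60, and without ImP 3 the ImP group was at 0, so no fold is given. Timp1 followed at 4.42 ± 0.50 (adjusted p = 0.000438), Adamts4 at 4.11 ± 0.39 (adjusted p = 0.000306) and Mmp13 at 3.62 ± 0.53 (adjusted p = 0.00167), the last with 2.79 without DSS+ImP 3. Adam9, Adamts5 and Adamts12 were called here, at 0.45, 1.51 and 1.76, while in DSS+ImP over DSS their adjusted p was 0.106, 0.0625 and 0.0766. Their calls were lost without DSS+ImP 3, and also without ImP 1, 3 or 4 for Adam9, ImP 1 or 4 for Adamts5, and DSS+ImP 2 or ImP 1 or 3 for Adamts12, at adjusted p up to 0.0974, 0.0838 and 0.068.

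Whether the change with ImP differs between colon with and without DSS was tested as an interaction, the change of DSS+ImP over DSS minus that of ImP over Ctrl. In edgeR 0 of 67 members were called, where 0% of all genes tested were called in either direction. An unadjusted p under 0.05 was found for 23 members and for 11.8% of all genes tested, and the smallest adjusted p values were those of Adam8 (log2 difference 2.82 ± 0.51 (adjusted p = 0.0595)) and Adamts4 (2.57 ± 0.50 (adjusted p = 0.0682)), together with Adam3 (adjusted p = 0.0595), for which Ctrl was at 0. DESeq2 called 8 members, against 4.27% of its genes in either direction, all higher: Adam8, Adamts4, Adamts9, Mmp9, Adamts1, Mmp2, Adamtsl1 and Timp1. Without DSS+ImP 4, edgeR called 8 members and 2.06% of all genes (Adam8, Adamts4, Adamts9, Mmp2, Mmp14, Timp2 and Adam23 higher, Adam3 lower), and 0 with any of the other 11 libraries left out. A rise in DSS+ImP over DSS is therefore not shown by edgeR on all 12 libraries to differ from the change of the same gene in ImP over Ctrl.

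Other genes that switch these proteases on or off were read from a list of 30 regulators. In DSS+ImP over DSS 0 of the 30 fell, where 3.99% of all genes tested rose and 4.04% fell. Genes of the plasminogen system, whose product plasmin activates MMP precursors, were among those that rose: the activators Plau (1.17 ± 0.25 (adjusted p = 0.0185)) and Plat (1.63 ± 0.35 (adjusted p = 0.0177)), the receptor Plaur (1.76 ± 0.27 (adjusted p = 0.0055)) and the inhibitors Serpine2 (1.44 ± 0.37 (adjusted p = 0.0337)) and Serpinb2 (adjusted p = 0.0105). Plaur had 36.5, 77.0 and 39.3 CPM in DSS+ImP libraries, 16.1, 17.2 and 11.7 in DSS, 7.75, 10.3 and 7.20 in ImP, and 9.58, 7.87 and 7.37 in Ctrl. In Plaur the DSS+ImP libraries were above all the others. Serpinb2 had 1.81, 4.62 and 1.66 CPM in DSS+ImP and counts in 1 DSS library only. The call of Plaur held with any library left out. Those of Plat, Plau, Serpine2 and Serpinb2 were lost without DSS+ImP 3, and also without DSS 3 or 5 for Plat, DSS 2 or 5 for Plau and DSS 2, 3 or 5 for Serpine2 (adjusted p up to 0.159). In DSS over Ctrl, A2m, a protease trap, was at least 11.3-fold higher than in Ctrl, which was at 0 (adjusted p = 0.0233). Pcsk6, a proprotein convertase, fell there (-0.94 ± 0.22 (adjusted p = 0.0436)). Of the 30, 1 rose and 1 fell in DSS over Ctrl, where 1.21% of all genes tested rose and 1.59% fell. Neither call held throughout: that of A2m was lost without Ctrl 1, 4 or 5 (adjusted p up to 0.0784), and that of Pcsk6 without any 1 of 9 libraries, all but DSS+ImP 4, ImP 1 and Ctrl 1 (up to 0.148). The MMP inhibitor Reck, the activating convertase Furin and the iRhoms Rhbdf1 and Rhbdf2, which carry Adam17 to the surface, were called in none of these comparisons. In DSS+ImP over ImP, Plau, Plat, Plaur, Serpine2 and Serpinb2 also rose, and the Adam10 partner Tspan15 fell (-0.35 ± 0.09 (adjusted p = 0.0316)). Over all genes tested, 4.41% rose and 4.92% fell there. The call of Tspan15 was lost without any 1 of DSS+ImP 2 or 3 or ImP 1, 3 or 4 (adjusted p up to 0.15). That of Serpinb2 was lost without DSS+ImP 3 (adjusted p = 0.0747). In ImP over Ctrl 0 of the 30 were called, where 1.99% of all genes tested were called in either direction.

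Of 8 other metalloproteinases of the wider metzincin clan, 3 rose and 3 fell in DSS+ImP over DSS, where 3.99% of all genes tested rose and 4.04% fell. Pappa (2.45 ± 0.37 (adjusted p = 0.00539)) and Pappa2 (3.17 ± 0.61 (adjusted p = 0.0113)), which cut IGF-binding proteins, and the procollagen C-proteinase Bmp1 (0.85 ± 0.20 (adjusted p = 0.0251)) rose. The meprins Mep1a (-1.47 ± 0.22 (adjusted p = 0.00499)) and Mep1b (-1.005 ± 0.17 (adjusted p = 0.00721)), brush border proteases of the epithelium, and Adamdec1 (-0.89 ± 0.25 (adjusted p = 0.046)), an ADAM relative of intestinal stromal and myeloid cells whose name the rule does not take, fell. Mep1a had 135, 85.2 and 186 CPM in DSS+ImP libraries, 381, 335 and 409 in DSS, 281, 356 and 288 in ImP, and 412, 426 and 427 in Ctrl. Pappa had 44.3, 84.8 and 24.8 CPM in DSS+ImP libraries, 9.89, 6.63 and 11.7 in DSS, 6.61, 6.99 and 5.74 in ImP, and 3.85, 5.22 and 6.04 in Ctrl. Mep1a was lowest and Pappa highest in the DSS+ImP libraries, without overlap with any other group. The calls of Mep1a, Mep1b and Pappa held with any library left out. Pappa2 was at 2.36 without DSS+ImP 3 and lost its call without DSS 5 (adjusted p = 0.0581). Bmp1 lost it without any 1 of DSS+ImP 2 or 3 or DSS 2, 3 or 5 (up to 0.118), and Adamdec1 without any 1 of 9 libraries, all but DSS+ImP 2, ImP 1 and ImP 4 (up to 0.167). In DSS over Ctrl none of the 8 was called, where 2.8% of all genes tested were called in either direction.

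The remaining members that were tested were called in none of the comparisons in edgeR, though some differed between groups. Adamts6 had means of 5.75 CPM in DSS+ImP, 3.87 in DSS, 2.70 in ImP and 2.10 in Ctrl. Adam18 had means of 0.153 CPM in DSS+ImP, 0.477 in DSS, 0.453 in ImP and 1.19 in Ctrl. Not tested were Adam2, Adam21, Adam30, Adam32, Adam6a, Mmp1a, Mmp20 and Mmp21, most of them known from testis or tooth. None of the 75 had 0 counts in all libraries. Adam32 had counts in 2 libraries only, at 0.3002 and 0.169 CPM in DSS+ImP 3 and 4. Over the 67 tested, the group mean was highest in DSS+ImP for 43, in DSS for 6, in ImP for 10 and in Ctrl for 8, and lowest in DSS+ImP for 6, in DSS for 7, in ImP for 12 and in Ctrl for 42. The same ranking was not computed over all genes tested, so it cannot be said to be particular to these families. Reads of some members may not be separable from those of other genes. Adam1a and Adam1b, and Adam6a and Adam6b, are neighbouring paralogs, and how far the counting could separate them was not measured. The kit marks the strand, but no source read says whether the counting used it. In GENCODE M21, 18 members share exon bases with another gene. On the same strand, Adam1a shares 4779 bases with Gm42878 and 1805 with Mapkapk5. On the opposite strand, the shared bases include 1733 of Timp3 with Syn3, 1381 of Adamts9 with A730049H05Rik, 789 of Mmp19 with Tmem198b, 157 of Mmp12 with Mmp1b, 123 of Mmp7 with AV064505, 122 of Adamts7 with Tbc1d2b and 46 of Adam8 with Gm16201.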

How the data were processed

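Total RNA from colon was extracted with Trizol, poly(A) RNA was captured with oligo(dT), and strand was marked with dUTP, per the labels' protocols. The tools that the submitters' processing notes list are cutadapt 1.9, HISAT2 2.0.4 and StringTie 1.3.4d, with GRCm38 as build; gene positions in the table differ from GENCODE M21 of that build for genes such as Timp1, so none are given. Per gene, the authors deposited estimated counts as unscaled whole numbers and, in the same table, FPKM values, scaled for transcript length and library. Counts of 4 are in excess (12215 values, against 7060 of 3 and 4182 of 5), from which each read pair was assumed to be worth about 4 counts. A group at 0 was therefore bounded at 12 counts summed over its libraries, a floor for counting error only.

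The table held 35841 genes, 1627 of them at 0 throughout. In R 4.3.3, edgeR 4.0.16 (TMM, factors 0.921 to 1.12; filterByExpr by group, 22279 genes kept; quasi-likelihood fit over all 12 libraries, 1 coefficient per group; common biological coefficient of variation 0.312) gave two-sided p-values, adjusted by Benjamini-Hochberg over all genes kept. CPM used TMM-scaled library sizes. Spearman correlations between replicates were 0.975 to 0.983. Groups came from the labels.

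The members, the lists of 30 regulators, 8 other metzincins and cell type markers, and the rule for named genes were chosen with earlier results of these data known. Values in every library are given for members called in DSS over Ctrl, in DSS+ImP over DSS or in the interaction, for the Timp genes and for the 3 best expressed members of each family; up to 6 genes a comparison are named from each list. Library sets were defined after the data were seen, from liver transcripts of at least 50 CPM or pancreatic transcripts of at least 5 CPM, with Cela1 dropped from the pancreatic list after its values were seen. Promoters are from RefSeq, and 75 of 75 members matched its gene table. Alternatives were DESeq2 1.42.0, limma 3.58.1 on log2(FPKM + 1) and log2(FPKM + 0.1) for genes of at least 1 FPKM in 3 libraries, no filter, a filter of 1 CPM in 6 libraries, the replicate number as a block, counts divided by 4, only the groups compared, the library set as a term, only libraries with liver transcripts, and each library left out. The fits were tested on simulated data. A few results of genes outside the families are not reported here.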

Additional observations from a re-analysis of the deposited data

How the results depend on the processing

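No called change turned its direction under any alternative run. Of the single-gene values recomputed under the alternatives, 125 kept and 47 lost the call in DSS over Ctrl, 384 and 99 in DSS+ImP over DSS, 427 and 38 in DSS+ImP over ImP, and 13 and 4 in ImP over Ctrl. For counts of called members, DSS over Ctrl (8 of 67 tested) gave 5 of 33 tested with limma on log2(FPKM + 1). It gave 2 of 67 with the library set as a term. Over all genes these fits called 734 and 52, against 623 in the fit used throughout. DSS+ImP over DSS (25) gave 12 with only the groups compared, with 721 of all genes called against 1789. ImP over Ctrl (1) gave 8 with DESeq2, 0 of 33 tested with either FPKM fit and 2 with the filter of 1 CPM in 6 libraries. It gave 0 with counts divided by 4, 2 with only the groups compared and 0 with the library set as a term. Over all genes, the 443 called became 1291, 632 and 640 (FPKM fits), 585, 579, 516 and 1 in the same order. The FPKM fits did not test the riser Adam3, at a mean of 0.11 FPKM. The interaction (0) gave 8 with DESeq2 and 3 of 33 tested with limma on log2(FPKM + 1) (Adamts4, Mmp8 and Timp1). With the filter of 1 CPM in 6 libraries it gave 1 (Adam8). Over all genes, the 0 called became 710, 72 and 46 in the same order. With each library left out, the counts ran from 3 to 9 in DSS over Ctrl and 11 to 29 in DSS+ImP over DSS. They ran from 0 to 3 in ImP over Ctrl, 19 to 27 in DSS+ImP over ImP and 0 to 8 in the interaction. The counts over all genes ran from 268 to 779, 491 to 2616, 49 to 527, 997 to 2490 and 0 to 476 in the same order. In the limma fit on log2(FPKM + 0.1), which also tested fewer genes (33 members), the median log2 change of all genes was 0.127 in DSS+ImP over ImP, against 0.0041 in edgeR, and that of the members was 0.58. The causes were not tested.

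The replicate number as a block gave 0 called members in DSS over Ctrl, 12 in DSS+ImP over DSS and 0 in ImP over Ctrl. It gave 15 in DSS+ImP over ImP and 0 in the interaction. Of all 22279 genes tested, it called 10, 351, 0, 688 and 2 in the same order. The labels do not say that a number marks a shared animal or day. The deviations of same-numbered libraries from their group means correlated at -0.11 to 0.0827 over 9 pairs, none over 0.1. No reference value was computed for these correlations, so they cannot decide whether a number marks a pairing.

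Limits are the 3 libraries a group, the traces of liver and pancreatic RNA that follow the groups, the high DSS+ImP 3 library, and bulk tissue. Members under about 0.07 CPM in a group, such as Adam3 and Mmp8 in Ctrl, are at the floor of these depths.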
